A study of Mus musculus with 6 samples.

Results

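AP-1, EGR and MYC immediate early genes encode transcription factors. The mRNAs of many of them, though not of all, appear within minutes of a growth factor or stress signal, without new protein synthesis. Of the 10 genes chosen, Fos, Fosb, Fosl1, Fosl2, Jun, Junb, Jund, Egr1, Myc and Atf3, 9 could be measured, out of 22180 genes in the table. A gene counted as measured where a row of the table was paired with its symbol alone. Fosl1 shares its row with a neighbouring gene, so it was not measured here. Jund had 2 rows, and the brighter by mean over the 6 arrays was used.

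The samples were cultured neonatal cardiomyocytes from the hearts of C57BL/6 mice at 1 day of age, enriched by 1 h of pre-plating. In the FGF21 group, 3 samples were held in hypoxia for 12 h with FGF21 at 1 µg/ml. The control group, also of 3 samples, was held in the same hypoxia for 12 h with no FGF21. Hypoxia was 2% oxygen, 5% carbon dioxide and 93% nitrogen in both groups, so no sample shows the genes at normal oxygen. Each sample was hybridised to 1 Affymetrix Mouse Gene 2.0 ST array, and the series asks which genes FGF21 regulates in hypoxic cardiomyocytes. Titles call the samples biological replicates 1 to 3, but nothing says whether they came from separate hearts or cultures, so the spread behind each p-value may be partly technical.

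FOS and JUN proteins pair through leucine zippers to form the factor AP-1, which binds DNA near genes of growth, matrix turnover and inflammation. Signals through ERK act on the serum response factor and its ELK partners to start Fos and Egr1, while the kinase JNK acts on JUN, which also binds its own gene's promoter. FGF21 is a hormone that signals through an FGF receptor and the co-receptor beta-Klotho to ERK. The mRNAs of Fos and Egr1 are short-lived, so a single late sampling time sees mainly what persists. All 6 samples were held for 12 h, and none gives an earlier time.

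Promoter sequences are shown for the 3 genes with non-overlapping groups that have an entry in the RefSeq table (Jun, Jund and Fosl2), and for Fos as the classical member whose groups overlapped. Each run covers 250 bases before and 50 after the annotated start, 5′ to 3′ on the gene's strand, in build GRCm38.p6, and capitals mark a motif match.
Jun (chr4:95052173-95052472, minus strand): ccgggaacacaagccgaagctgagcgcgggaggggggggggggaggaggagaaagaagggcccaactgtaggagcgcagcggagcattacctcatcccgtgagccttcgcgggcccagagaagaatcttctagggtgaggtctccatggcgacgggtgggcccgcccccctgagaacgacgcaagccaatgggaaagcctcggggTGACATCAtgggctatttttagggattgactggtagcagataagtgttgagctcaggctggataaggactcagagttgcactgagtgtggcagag
Jund (chr8:70697489-70697788, plus strand): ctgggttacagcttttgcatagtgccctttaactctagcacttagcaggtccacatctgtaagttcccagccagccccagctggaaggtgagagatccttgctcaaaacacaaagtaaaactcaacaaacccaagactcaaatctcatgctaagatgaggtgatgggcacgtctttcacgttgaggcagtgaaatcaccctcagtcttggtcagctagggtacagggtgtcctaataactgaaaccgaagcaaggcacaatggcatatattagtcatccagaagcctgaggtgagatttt
Fosl2 (chr5:32136222-32136521, plus strand): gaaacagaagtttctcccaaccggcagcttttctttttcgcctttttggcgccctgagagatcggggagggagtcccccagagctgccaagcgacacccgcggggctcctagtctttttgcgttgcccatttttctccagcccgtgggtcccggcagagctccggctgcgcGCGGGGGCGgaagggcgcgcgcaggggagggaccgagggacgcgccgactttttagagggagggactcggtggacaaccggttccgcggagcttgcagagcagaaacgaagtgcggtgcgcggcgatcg
Fos (chr12:85473640-85473939, plus strand): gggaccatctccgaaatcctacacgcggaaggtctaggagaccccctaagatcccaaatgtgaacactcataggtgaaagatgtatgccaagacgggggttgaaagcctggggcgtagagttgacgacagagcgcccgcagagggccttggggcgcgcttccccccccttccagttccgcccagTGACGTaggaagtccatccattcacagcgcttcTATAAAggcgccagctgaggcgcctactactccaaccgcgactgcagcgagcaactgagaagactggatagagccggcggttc

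RefSeq entries for 7 of the genes were searched on both strands, the 4 shown and those of Fosb, Junb and Atf3. No window of Egr1 or Myc was searched. Sequence more than 250 bases before a start was not searched either, so sites there would not be seen. The AP-1-like octamer TGACATCA stood in the Jun window, starting 45 bases before the start (position -45), and is held by 3.62% of all 32851 promoters. The CRE core TGACGT, which lies inside the full CRE TGACGTCA, stood at -66 in Fos and, on the opposite strand, at -8 in Atf3; 7.51% of promoters hold it. The TATA box sequence TATAAA stood at -33 in Fos, and 13.6% of promoters hold it. In Junb the same sequence began at position 1, so at the annotated start and not before it. The EGR site GCGNGGGCG stood at -79 in Fosl2 and at -50 in Fosb, and 5.55% of promoters hold it. None of the 7 windows held the AP-1 site TGANTCA (7.81% of promoters), the full CRE (1.79%), the E-box CACGTG (7.15%) or a CArG box (1.63%), the element of the serum response factor. Matches in so short a window are a description and carry no reading about which factor acts.

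The values are log2 array signals made by the robust multi-array average (RMA), and differences are FGF21 minus control, tested with limma over all 22180 genes. With FGF21, 7 of the 9 genes had higher means and 2 had lower means. Of all genes 47.8% had higher means, and of those at or above the median gene level 62.6%. Jund, Jun and Myc had the largest differences, each between 1.22-fold and 1.30-fold higher, and together with Fosl2 they were the 4 genes whose FGF21 arrays all lay above the controls. Over all genes, 8.99% had non-overlapping groups that were higher with FGF21 and 8.14% had ones that were lower. At an adjusted p under 0.05, limma called 0 of the 9 genes and 0% of all genes. At an unadjusted p under 0.05 limma gave 3 of 9 higher (Jund, Jun and Myc) and 0 lower, beside 6.59% and 5.11% of all genes. That background moves with the scaling: after each array was centred on its median, 10.5% of all genes were higher and 2.63% lower, so that 79.9% of such genes were higher in place of 56.3%, and 4 of the 9 genes were higher and 0 lower. All 9 genes lie above the median gene level, and when only genes at or above it were fitted, 11.5% were higher and 3.80% lower at an unadjusted p under 0.05. The median difference of the 9 genes was 0.11, beside 0.04 for genes at or above the median level and -0.01 for all genes. In RNA of mixed cultures, fewer cells of a type and less RNA per cell cannot be told apart.

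**Figure D1:**
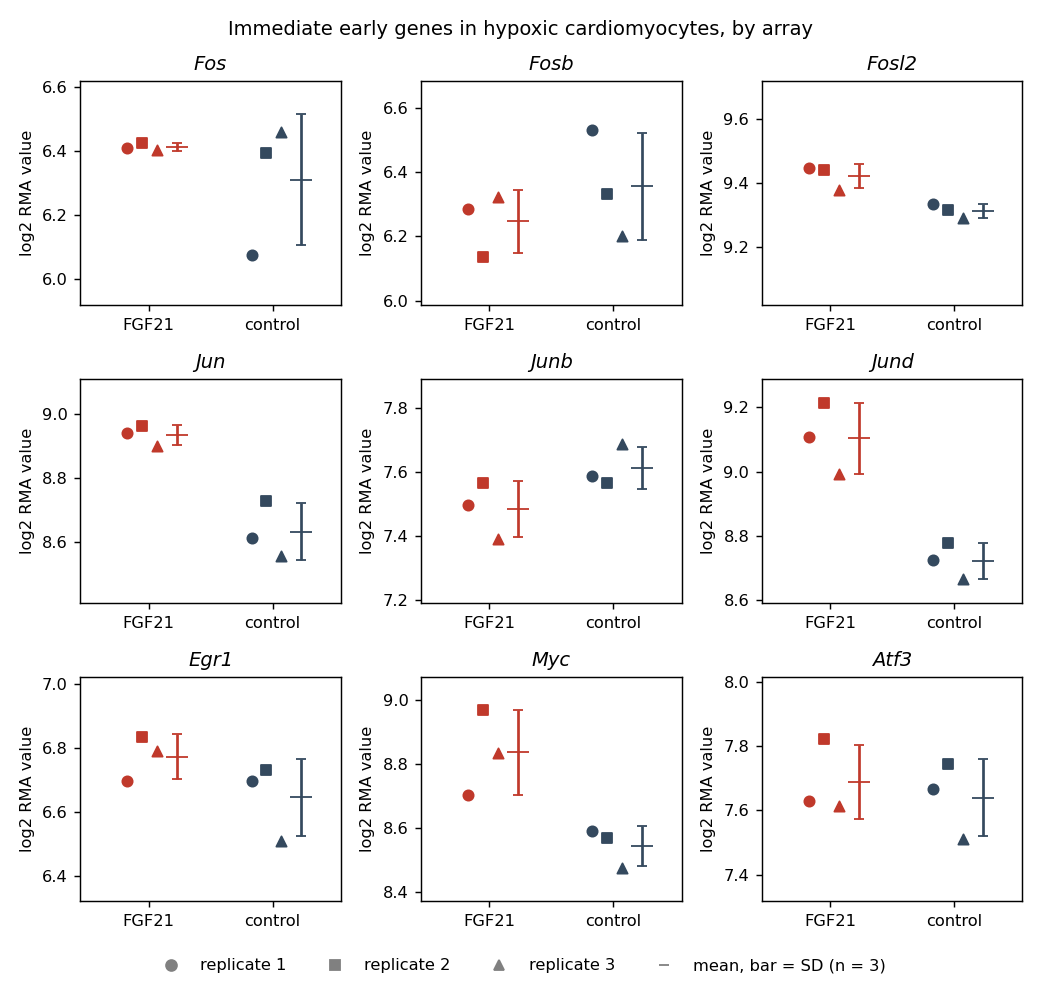
Log2 RMA value (y axis, the same span in every panel) of each immediate early gene in the FGF21 and control groups; marker shapes give the replicate number and bars the mean with its SD (n = 3). The FGF21 points of Jun, Jund, Myc and Fosl2 lie above all their control points, and those of the other 5 genes overlap the controls.

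JUN proteins form AP-1 with FOS proteins or with each other, and of the 3 genes 2 had higher means with FGF21 and 1 a lower mean. Jund, the family member usually made at a steady level in resting cells, stood at 9.11, 9.21 and 8.99 in FGF21 replicates 1 to 3, against 8.72, 8.78 and 8.66 in control replicates 1 to 3. The lowest FGF21 array lay above the highest control. Its mean was 9.10 ± 0.111 with FGF21 and 8.72 ± 0.0568 in controls (SD, n = 3 each), a log2 difference of 0.38 ± 0.07 (SE), or 1.30-fold (95% interval 1.16 to 1.46), with a limma adjusted p of 0.141.

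The result for Jund depends on which row stands for the gene. The dimmer row (probe set 17510127) had 6.42, 6.39 and 6.54 with FGF21 and 6.47, 6.55 and 6.62 in controls, a difference of -0.09 with a 95% interval of -0.25 to 0.06. Those groups overlap, and the sign is opposite to that of the brighter row (probe set 17502001). As the mean of both rows, Jund differed by 0.14. The sources used here do not say which part of the transcript each row covers.

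Jun, the founding JUN gene, whose protein is phosphorylated by JNK, stood at 8.94, 8.96 and 8.90 with FGF21, against 8.61, 8.73 and 8.56 in controls. Every FGF21 array was above every control array, and the 3 FGF21 values were the closer together, with an SD of 0.031 beside 0.088 in controls. The difference was 0.30 ± 0.07 (SE), 1.23-fold with a 95% interval of 1.11 to 1.37, and the limma adjusted p was 0.179. Its promoter, shown above, is the one with the AP-1-like octamer.

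Junb, which can oppose JUN at some target genes, had 7.50, 7.57 and 7.39 with FGF21 and 7.59, 7.57 and 7.69 in controls. FGF21 replicate 2 and control replicate 2 held the same value, so the groups met at one point. The difference was -0.13 ± 0.07 (SE), with a 95% interval from -0.29 to 0.03 and a limma adjusted p of 0.512. Whether the JUN genes differ from each other in their response was not tested.

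**Figure D2:**
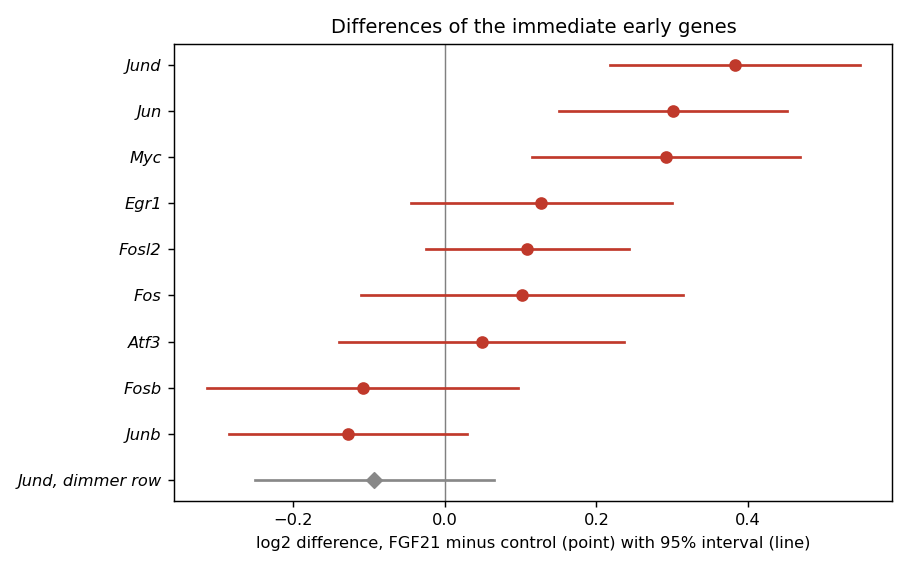
Log2 difference, FGF21 minus control (x axis), of the 9 measured genes and, in grey, of the dimmer Jund row, with 95% intervals as lines. The intervals of Jund, Jun and Myc lie above 0, and the other 6 genes and the dimmer Jund row have intervals that include 0.

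FOS proteins cannot pair with themselves and need a JUN partner to bind DNA. Fosl2, which encodes FRA2, had 9.45, 9.44 and 9.38 with FGF21 and 9.33, 9.31 and 9.29 in controls. The groups did not overlap, but the whole range over the 6 arrays was only 0.16. The difference was 0.11 ± 0.06 (SE), or 1.08-fold with an interval of 0.983 to 1.18, and the limma adjusted p was 0.513.

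Fos, the founding gene of the family, had 6.41, 6.43 and 6.40 with FGF21, against 6.08, 6.39 and 6.46 in controls. The FGF21 values were nearly equal, while control replicate 1 lay well below every other array. The difference of 0.10 ± 0.10 (SE; limma adjusted p of 0.706) rests on that 1 control: without it the value was -0.01, and with each of the other arrays left out in turn it reached at most 0.18. The interval of the fold, 0.926 to 1.24, includes both no change and the 1.23-fold of Jun.

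Fosb, whose shorter splice form is known in brain to outlast the other FOS proteins, had 6.29, 6.14 and 6.32 with FGF21 and 6.53, 6.33 and 6.20 in controls. Control replicate 1, the lowest array for Fos, was the highest for Fosb. The difference was -0.11 ± 0.09 (SE), with a limma adjusted p of 0.673, and it was -0.02 without control replicate 1.

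Egr1, a zinc finger factor started by ERK through the serum response factor, had 6.70, 6.83 and 6.79 with FGF21 and 6.70, 6.73 and 6.51 in controls. FGF21 replicate 1 and control replicate 1 were level, and control replicate 3 was the lowest array. The difference was 0.13 ± 0.08 (SE; fold interval 0.969 to 1.23; limma adjusted p of 0.546), and it was 0.06 without control replicate 3.

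Myc, a factor that drives ribosome production and cell growth, had 8.70, 8.97 and 8.84 with FGF21, against 8.59, 8.57 and 8.47 in controls. The groups did not overlap, though FGF21 replicate 1 lay closer to the controls than to FGF21 replicate 2. The difference was 0.29 ± 0.08 (SE), 1.22-fold with an interval of 1.08 to 1.38, and the limma adjusted p was 0.241. Leaving out 1 array at a time gave 0.23 without FGF21 replicate 2 and 0.36 without FGF21 replicate 1.

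Atf3, a stress-induced factor that binds AP-1 and CRE-like sites, had 7.63, 7.82 and 7.61 with FGF21 and 7.67, 7.74 and 7.51 in controls. The groups overlapped almost wholly. The difference was 0.05 ± 0.08 (SE), with a fold interval of 0.908 to 1.18 and a limma adjusted p of 0.860. Its sign turned without FGF21 replicate 2 (-0.02) and without control replicate 3 (-0.02).

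An exact permutation test, two-sided, was run for each gene over the 20 relabellings of 3 against 3 arrays. It gave 0.1 for Jund, Jun, Myc and Fosl2, which is the smallest p that this design allows. Every gene with non-overlapping groups gets an exact p of 0.1, so the value only restates the non-overlap of these genes. In either direction, 17.1% of all genes had non-overlapping groups. For Egr1 and Junb the exact p was 0.2, for Fosb 0.4, and for Fos and Atf3 0.7.

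The arrays were not evenly placed within the groups. FGF21 replicate 2 was the highest array for 5 of the 9 genes (Jun, Jund, Egr1, Myc and Atf3) and the lowest for Fosb. Control replicate 3 was the lowest array for 6 of the 9 (the same 5 and Fosl2) and the highest for Fos and Junb. Jun, Jund and Myc had an unadjusted limma p under 0.05 with any 1 of the 6 arrays left out. In each of the 16 other settings, these included, between 7.71% and 15.3% of all genes fitted had such a p. The refits reuse the same arrays, so they cannot show whether the uneven placing matters. The median deviation from the gene's own mean was 0.12 on FGF21 replicate 2 and -0.15 on control replicate 3, and between -0.03 and 0.04 on the other 4 arrays.

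**Figure D3:**
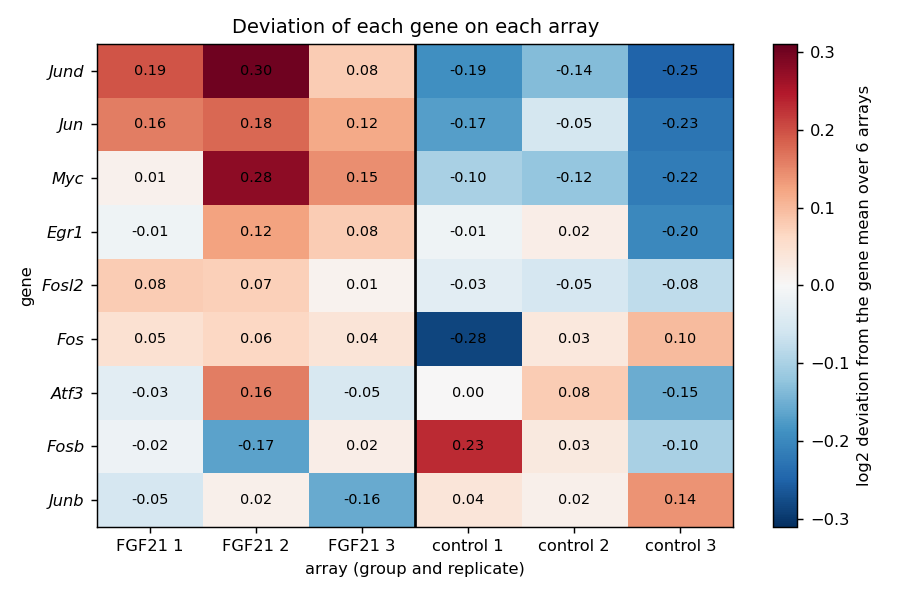
Log2 deviation of each gene (rows, ordered by difference) from its own mean over the 6 arrays (columns, FGF21 left of the black line and control right of it); red is above and blue below the mean. Jund, Jun, Myc and Fosl2 are above their mean on all FGF21 arrays and below it on all controls, and control replicate 1 stands out for Fos (-0.28) and Fosb (0.23).

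Among 38 other immediate early genes, all measured, limma gave 8 higher and 0 lower at an unadjusted p under 0.05. Over all genes those shares were 6.59% and 5.11%, and when only genes at or above the median level were fitted 11.5% and 3.80%. At an adjusted p under 0.05 limma gave 0 of the 38. The median difference of the 38 was 0.05, with 22 higher and 16 lower. Of all genes 47.8% had higher means with FGF21, and of those at or above the median level 62.6%. Klf4, a zinc finger factor of differentiation, had 8.59, 8.67 and 8.57 with FGF21, against 8.33, 8.26 and 8.21 in controls, a difference of 0.34 ± 0.07 (SE; limma adjusted p of 0.139). Rhob, a small GTPase of endosomes, differed by 0.25 ± 0.06 (SE). Ccn2, a matricellular protein gene, differed by 0.29 on its brighter row and by 0.02 on its other row. The groups of all 3 did not overlap on the rows used, but the 3 were named for having the smallest p of the list. Of the 38 genes, 11 had non-overlapping groups that were higher and 2 had ones that were lower. Over all genes those shares were 8.99% and 8.14%.

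Partners and relatives of the 9 genes had small differences of both signs. Of 11 measured AP-1 partners (12 chosen), 1 was higher and 1 lower at an unadjusted p under 0.05: Jdp2, a repressor that pairs with JUN, at 0.16 ± 0.07 (SE), and the small MAF gene Mafk at -0.16 ± 0.07. Mafa, the third of the list by p, stood at -0.19. The median of the list was -0.01, and its counts stand beside 6.59% of all genes higher and 5.11% lower. Of the 5 other EGR and NAB genes none had an unadjusted limma p under 0.05; Egr4 was at -0.17, Egr2 at -0.10 and Nab2, a corepressor of EGR proteins, at 0.13 on one row and -0.07 on its other. In the MYC network of 10 genes, Mycn was at -0.19 ± 0.07 (SE, unadjusted limma p of 0.0208), Max, the obligate partner of MYC, was at 0.13 ± 0.06 (unadjusted limma p of 0.0549), and Mxd3 was at -0.11. The median of that list was 0.01.

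Upstream kinases and factors had small differences. Of 25 chosen genes 18 were measured, and 16 of these had higher means with FGF21 and 2 lower, with a median of 0.08. Of all genes 47.8% had higher means with FGF21, and of those at or above the median level 62.6%. At an unadjusted p under 0.05 limma gave 4 higher and 0 lower, beside 6.59% and 5.11% of all genes. When only genes at or above the median level were fitted, those shares were 11.5% and 3.80%. Map2k1, which encodes the ERK kinase MEK1, had 9.70, 9.67 and 9.65 with FGF21, against 9.52, 9.43 and 9.40 in controls, a difference of 0.23 ± 0.06 (SE; limma adjusted p of 0.25). Srf, the serum response factor gene, differed by 0.24 ± 0.08, and Mapk9, which encodes a JNK, by 0.21 ± 0.08.

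**Figure D4:**
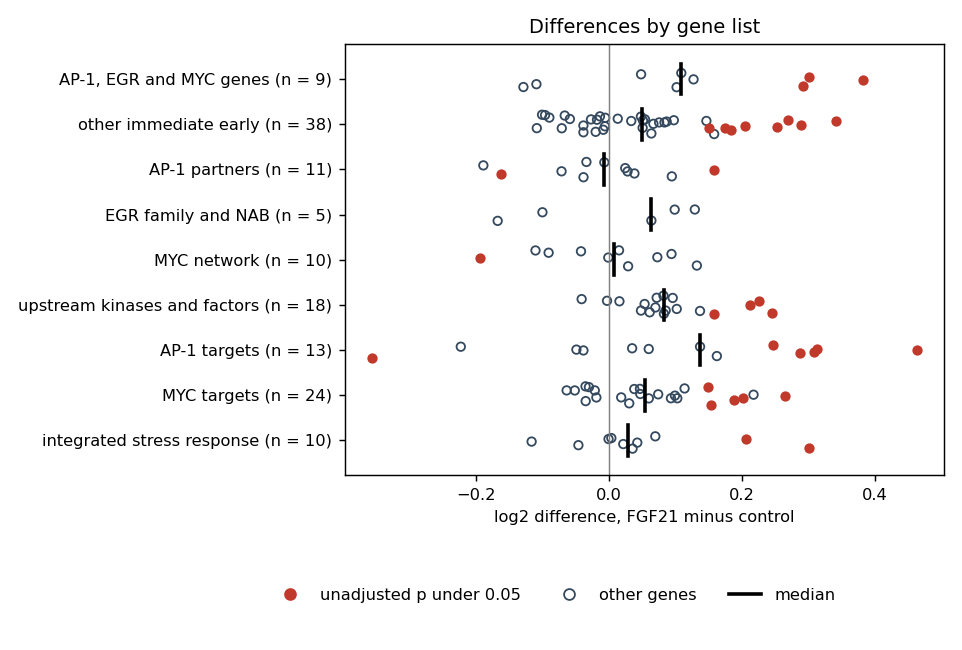
Log2 difference, FGF21 minus control (x axis), of each measured gene in 9 lists (rows); filled red points have an unadjusted limma p under 0.05, open points do not, and black bars are medians. Medians lie between -0.01 for AP-1 partners and 0.14 for AP-1 targets, and no gene in any list passed an adjusted p of 0.05.

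Genes known as AP-1 targets were measured for 13 of 15 chosen. At an unadjusted p under 0.05 limma gave 5 higher and 1 lower, beside 6.59% and 5.11% of all genes. When only genes at or above the median level were fitted, those shares were 11.5% and 3.80%. The median difference of the 13 targets was 0.14, and at an adjusted p under 0.05 limma gave 0 of them. Ccnd1, the cyclin that carries growth factor signals into the cell cycle, had 8.26, 8.24 and 8.05 with FGF21, against 7.82, 7.77 and 7.57 in controls, a difference of 0.46 ± 0.09 (SE; 1.38-fold; limma adjusted p of 0.119). Edn1, which encodes the peptide endothelin, differed by 0.31 ± 0.07, and Ptgs2, the inducible cyclooxygenase, by 0.31 ± 0.07. The 1 lower gene was Hmox1, heme oxygenase, at 11.2, 11.3 and 11.2 with FGF21 and 11.8, 11.4 and 11.5 in controls, a difference of -0.36 ± 0.10; it was singled out after its values were seen.

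MYC targets of ribosome production and growth were measured for 24 of 26 chosen, with 17 higher and 7 lower and a median of 0.05. Of all genes 47.8% had higher means with FGF21, and of those at or above the median level 62.6%. At an unadjusted p under 0.05 limma gave 5 higher and 0 lower, beside 6.59% and 5.11% of all genes. When only genes at or above the median level were fitted, those shares were 11.5% and 3.80%. Dkc1, a pseudouridine synthase, differed by 0.26 ± 0.08 (SE), the mitochondrial chaperone gene Hspd1 by 0.19 ± 0.06 and the nucleolar gene Nop58 by 0.20 ± 0.08. Odc1, a classical MYC target, was at 8.01, 8.21 and 8.27 with FGF21 and 8.29, 8.05 and 8.26 in controls, with overlapping groups; it was picked after its values were seen. The 10 genes of the integrated stress response, the setting in which Atf3 is often induced, had a median of 0.03, with 2 higher at an unadjusted p under 0.05. Those were Sesn2, at 0.30 ± 0.10 (SE), and Chac1, at 0.21 ± 0.09, while Ppp1r15a, which restores translation after stress, was at -0.12.

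By the root-mean-square distance of profiles centred on their own mean over the 6 arrays, the genes nearest to Jun among those above the median level were Frg1, Sh3gl2 and Csrp3, each at 0.027. The nearest to Myc were Rpe (0.037), Sdc2 (0.039) and Ptpn11 (0.039). Egr1 was nearest to Zadh2 (0.014), Med23 (0.023) and Relch (0.024), and Fos to Ndufs8 (0.027), Foxc1 (0.027) and Hacd2 (0.032). Ndufs8, Foxc1 and Hacd2 share with Fos its low control replicate 1. On that array they stood at 9.63, 5.96 and 8.74, and on each of the other 5 at no less than 9.88, 6.27 and 9.04. These likenesses are a description over 6 arrays.

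Markers of the cell types a heart culture can hold were read beside these values; signals of different genes on an array cannot be set against each other, so they give no makeup of the cultures. The 12 cardiomyocyte markers, among them Myh6, Tnnt2 and Actc1, had list means of 10.90, 10.88 and 10.84 with FGF21 and 11.03, 10.87 and 10.86 in controls. Of the 12, 8 were lower with FGF21, and limma gave 0 of them an unadjusted p under 0.05. Groups did not overlap for 2 of the 12, Tnni3 (-0.05) and Actc1 (-0.11), which were lower with FGF21. Over all genes 8.14% were lower in that way. Control replicate 1 was the highest array of that list: Ttn, the titin gene, stood at 10.84 there and between 10.27 and 10.39 on the other arrays, and Ryr2, the calcium release channel gene, at 11.17 there and between 10.71 and 10.82 elsewhere. The same array was the lowest for Fos and the highest for Fosb, and the part of cardiomyocyte markers in those values was not tested. Endothelial markers went with the group. Of 12, 11 were lower with FGF21 and 8 were lower with non-overlapping groups, beside 8.14% of all genes. The list mean ran from 7.01 to 7.21 with FGF21 and from 7.30 to 7.51 in controls, and no marker reads 0 on this scale. Fibroblast list means ran from 10.27 to 10.34 with FGF21 and from 10.28 to 10.35 in controls. Leukocyte means ran from 7.35 to 7.42 with FGF21 and from 7.36 to 7.38 in controls, and smooth muscle means from 8.73 to 8.84 with FGF21 and from 8.79 to 8.90 in controls. Within these lists some groups did not overlap. Of the smooth muscle list, Rgs5, a gene of pericytes, differed by -0.49 ± 0.15 (SE) and Myh11 by 0.16 ± 0.06. Pdgfrb (-0.03), Cspg4 (0.02) and Notch3 (-0.02) of that list overlapped, so Rgs5 does not stand for it. Of the leukocyte markers Cd68 differed by -0.20 ± 0.06 and Ptprc by 0.20 ± 0.08. Of the fibroblast markers Ddr2 differed by 0.09, Postn by 0.06 and Col1a1 by -0.07. The part of these markers in the values of Jun, Jund and Myc was not tested.

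**Figure D5:**
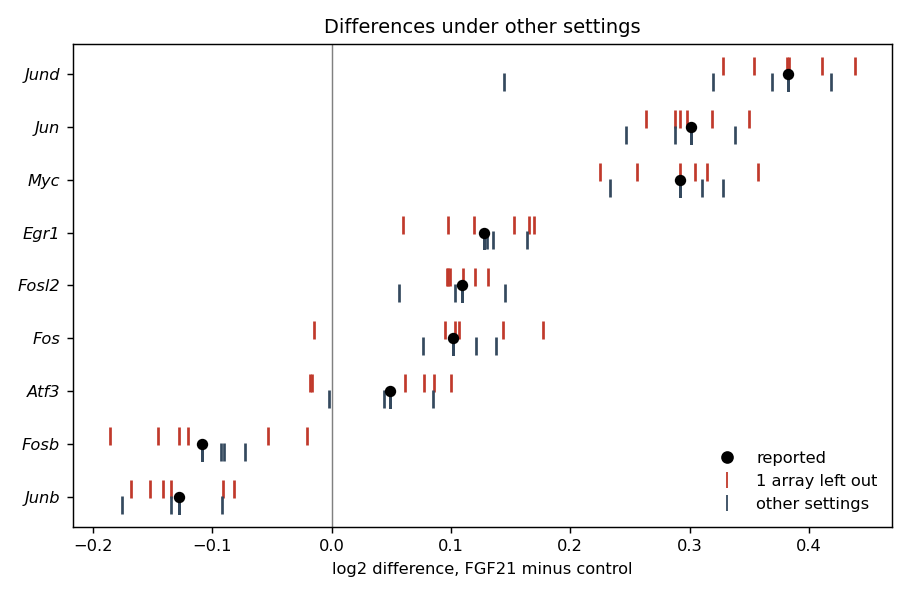
Log2 difference, FGF21 minus control (x axis), of each gene as reported (black points), with 1 array left out (red ticks) and under the other settings (blue ticks). Jund, Jun, Myc, Egr1 and Fosl2 stay above 0 and Junb and Fosb below it in all 16 settings, the low blue tick of Jund (0.14) is the mean of its 2 rows, and Fos and Atf3 reach both sides of 0.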

How the data were processed

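Total RNA of 6 samples was labelled with biotin and hybridised to Mouse Gene 2.0 ST arrays, per the labels. The authors deposited log2 values, which they made with RMA in R 3.2.2 and affy, per the submitters' processing notes. Because RMA gives all arrays nearly one distribution, a change shared by most genes would not show, and dim genes show smaller differences. The chip definition is not given in the sources used here. The number of arrays limits the precision. Array medians over all rows were 5.79, 5.76 and 5.79 in FGF21 replicates 1 to 3. In control replicates 1 to 3 they were 5.81, 5.82 and 5.83. All FGF21 medians thus lay below all control medians, and centring each array on its median moved Jund from 0.383 to 0.419. The arrays held 0 pairs with identical values.

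Groups came from the sample titles. Rows were named through the platform annotation: 23521 had 1 symbol, 1814 several and 16010 none. For the 1082 genes with several rows the row of highest mean was used. Symbols of the 9 measured genes matched RefSeq (GRCm38.p6). The comparison was fitted in R 4.3.3 by lmFit and eBayes of limma 3.58.1, without covariates and two-sided, with Benjamini-Hochberg adjustment over all 22180 genes and a threshold of 0.05, and the fit was tested on simulated data.

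The members and lists were chosen with earlier results of these data known. Named genes are the members, up to 3 genes of smallest p per list and 3 profile neighbours each of 4 members, leaving out predicted genes. Alternatives were arrays left out in turn, a replicate block, other scalings, 2 filters on dim genes, other row rules, priors, array weights and an ordinary equal-variance statistic. Arrays of the same replicate number had deviations from their group means correlated at 0.103, 0.158 and 0.00653, so the numbers were not taken to pair the samples.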

Additional observations from a re-analysis of the deposited data

How the results depend on the processing

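Of 144 values of the 9 genes under 16 other settings, 140 kept their sign and none of the 144 passed an adjusted p of 0.05; the lowest adjusted p in any setting was 0.0613, for Jund when only genes at or above the median level were fitted. The 4 that turned were Fos without control replicate 1 (-0.0145) and Atf3 without FGF21 replicate 2 (-0.0180), without control replicate 3 (-0.0163) and with quantile normalization applied again (-0.00243). With 1 array left out, the differences ran from 0.328 to 0.439 for Jund, 0.263 to 0.35 for Jun, 0.225 to 0.357 for Myc, 0.0594 to 0.170 for Egr1, 0.0968 to 0.131 for Fosl2, -0.0145 to 0.177 for Fos, -0.0180 to 0.10 for Atf3, -0.186 to -0.0203 for Fosb and -0.168 to -0.0819 for Junb. Jund was at 0.145 as the mean of its rows, and Fosl2 at 0.0568 with quantile normalization applied again. Jund, Jun and Myc had an unadjusted p under 0.05 in all 16 settings, as did between 7.71% and 15.3% of all genes fitted. The settings reuse the same arrays, and none used the dimmer Jund row (-0.09) alone. Fosl2 joined the 3 genes after median centring and with the ordinary statistic, and Junb, as lower, with quantile normalization applied again. The number of all genes at an adjusted p under 0.05, 0 as reported, was 2 without FGF21 replicate 1 and 0 without any other array, 5 with quantile normalization applied again, 12 with median centring, 58 and 26 without genes below the median and the lower quartile of level, 2 with the mean of rows, 16 with a robust prior that follows a trend, and 2 with array weights. It was 28 at an adjusted p under 0.1, and 2594 at an unadjusted p under 0.05. The filters change how many genes are tested and also which genes are fitted, and the cause of these counts was not tested. With the replicate number as a block, Jund stayed at 0.383, Jun at 0.302 and Myc at 0.292, and 0 genes passed. Signal over background was not analysed here, and it limits what can be said of the dimmer rows, those of Fos and Fosb among them.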
